A study of Mus musculus with 11 samples.

Results

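The CXCL12 axis and the homeostatic chemokines of the heart were followed through 8 genes chosen by name. These were the chemokine Cxcl12, its signalling receptor Cxcr4 and its scavenging receptor Ackr3, the ligands Cxcl14, Ccl21a and Ccl11, and the scavenging or transporting receptors Ackr1 and Ackr2. All 8 were found among the 55421 genes of the table of read counts, and all 8 passed the filter on low counts in each comparison. In the comparisons with sham, Ackr1 did so only through the infarcted libraries. RNA was taken from hearts of female C57BL/6J mice aged 8 weeks in 3 groups that all received the solvent DMSO. The MI-DMSO group (4 libraries, A105, A127, A128 and A129) held tissue labelled as the border zone of an infarct, which by the study's text took in the infarct as well, taken 3 days after ligation of the left anterior descending artery from mice given DMSO alone. The MI-A10i group (4 libraries, A116, A117, A119 and A120) held the same tissue at the same time after the same ligation, from mice given GI254023X, a hydroxamate inhibitor of the membrane protease ADAM10, at 100 mg/kg in DMSO. Both agents were released from implanted osmotic minipumps. The sham group (3 libraries, S1, S2 and S3) held tissue labelled as healthy, also with DMSO, and the labels name no day for it. No sham group received the inhibitor, so its effect was measured only in infarcted hearts, and injury and the site of sampling cannot be told apart in the comparisons with sham. The study's text gives these group sizes as numbers of mice, so each library is taken to come from its own mouse.

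Chemokines are small secreted proteins that guide the movement of leukocytes. Inflammatory chemokines are switched on by injury, whereas homeostatic chemokines are made steadily by stromal and endothelial cells and hold leukocytes and progenitor cells in their niches. CXCL12 is the archetype of the second kind: it retains myeloid cells in the bone marrow through CXCR4, and in the heart it is made by stromal, mural and endothelial cells. The atypical receptors of the ACKR family bind chemokines without signalling through G proteins and thereby remove, store or transport them.

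The libraries held between 21702623 and 29511768 counts. Levels are given below as normalized read counts, that is, counts divided by the library's TMM-scaled size and brought to the mean size of the 11 libraries, on which scale 1 read was worth between 0.858 and 1.15. Levels of different genes were compared only as CPM (counts scaled by library size) per kilobase of exon. The cardiomyocyte markers summed to between 90010 and 90460 CPM in sham, between 40290 and 60060 CPM in MI-DMSO and between 51580 and 70690 CPM in MI-A10i. Of these markers 5 of 8 fell in MI-DMSO against sham, where 9.6% of all genes tested fell. The 5 pan-leukocyte markers summed to between 61.2 and 73.9 CPM in sham, between 126.1 and 270.0 CPM in MI-DMSO and between 149.9 and 272.3 CPM in MI-A10i. In such tissue, fewer cells of a type and less RNA per cell cannot be told apart.

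Per length of transcript, Cxcl12 was the most abundant of the 8 genes in the sham heart, at 25.4 ± 0.64 CPM per kilobase (SD, n = 3). Ackr3 was next at 21.5 ± 0.64 CPM per kilobase, and its libraries did not overlap those of Cxcl12. Ccl21a followed at 5.52 ± 0.85 CPM per kilobase and Cxcl14 at 4.88 ± 1.59 CPM per kilobase, which did not differ beyond their spread. Cxcr4 reached 2.91 ± 0.39 CPM per kilobase, below every Cxcl14 library. Ccl11 at 0.775 ± 0.175 CPM per kilobase and Ackr2 at 0.591 ± 0.099 CPM per kilobase overlapped, and Ackr1 was the least abundant at 0.166 ± 0.101 CPM per kilobase. After infarction the 2 highest and the lowest genes kept these places. In MI-DMSO the mean level of Cxcl14 (8.46 CPM per kilobase) stood above that of Ccl21a (7.08 CPM per kilobase), but the libraries of both genes overlapped, as they did in MI-A10i at 8.48 and 10.9 CPM per kilobase. The MI-A10i libraries of Cxcl12 (22.5 to 27.6 CPM per kilobase) and Ackr3 (16.6 to 24.4 CPM per kilobase) also overlapped.

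**Figure D1:**
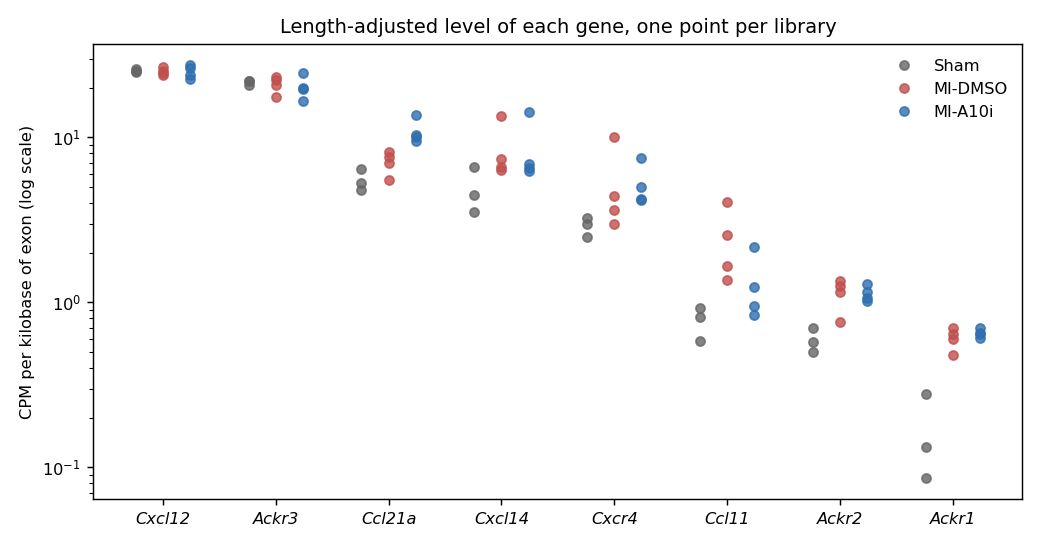
Level of each of the 8 genes in CPM per kilobase of exon (log axis), with 1 point per library and the groups in colour (3 sham, 4 MI-DMSO, 4 MI-A10i). Cxcl12 and Ackr3 lie between 16.6 and 27.6 CPM per kilobase in every library, and Ackr1 lies below 1 CPM per kilobase throughout.

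The first question was which of these genes differed between infarcted and sham hearts. In MI-DMSO against sham, 2 of the 8 genes, Ccl11 and Ackr1, rose at an adjusted p below 0.01 and none fell. Over all 17117 genes tested, 12.9% rose and 9.6% fell by the same test (edgeR's quasi-likelihood test, Benjamini-Hochberg adjustment). The libraries of 3 of the 8 genes lay above sham without overlap, and 25.6% of all genes did so. In MI-A10i against sham, 3 of the 8 genes, Ccl21a, Ackr1 and Ackr2, rose and none fell, against 13.7% and 9.11% of the 16971 genes tested. The libraries of 4 of the 8 genes lay above sham without overlap, against 24.8% of all genes. The median log2 fold change of the 8 genes was 0.81 in MI-DMSO and 0.82 in MI-A10i, beside 0.00 and -0.01 over all genes tested. With scaling by library size alone, 3330 genes rose and 708 fell in MI-DMSO, against 2215 and 1643 here, and 3436 rose and 577 fell in MI-A10i, against 2333 and 1546. That scaling moved the median of all genes to 0.21 and 0.18, and the fold changes below are relative to a median near 0. Both comparisons share their sham libraries.

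The second question was whether ADAM10 inhibition altered these genes after infarction. In MI-A10i against MI-DMSO none of the 8 genes passed an adjusted p of 0.01, and neither did any of the 16792 genes tested (0% called). With no adjustment, 1193 genes (7.1%) were higher and 1130 (6.73%) lower at p below 0.05, and 1 of the 8 genes, Ccl21a, was among the higher. Ccl21a was also the 1 gene of the 8 whose infarcted groups did not overlap, as for 8.18% of all genes. The median log2 fold change of the 8 genes was 0.01, beside 0.00 over all genes tested. DESeq2 called 231 genes in this comparison at the same threshold, limma-voom called 0, and none of the 8 genes was called by either. The study used DESeq2 with IHW, a weighted p adjustment, at that threshold and reported genes called in both directions under the inhibitor. The number of genes called here thus depends on the test.

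**Figure D2:**
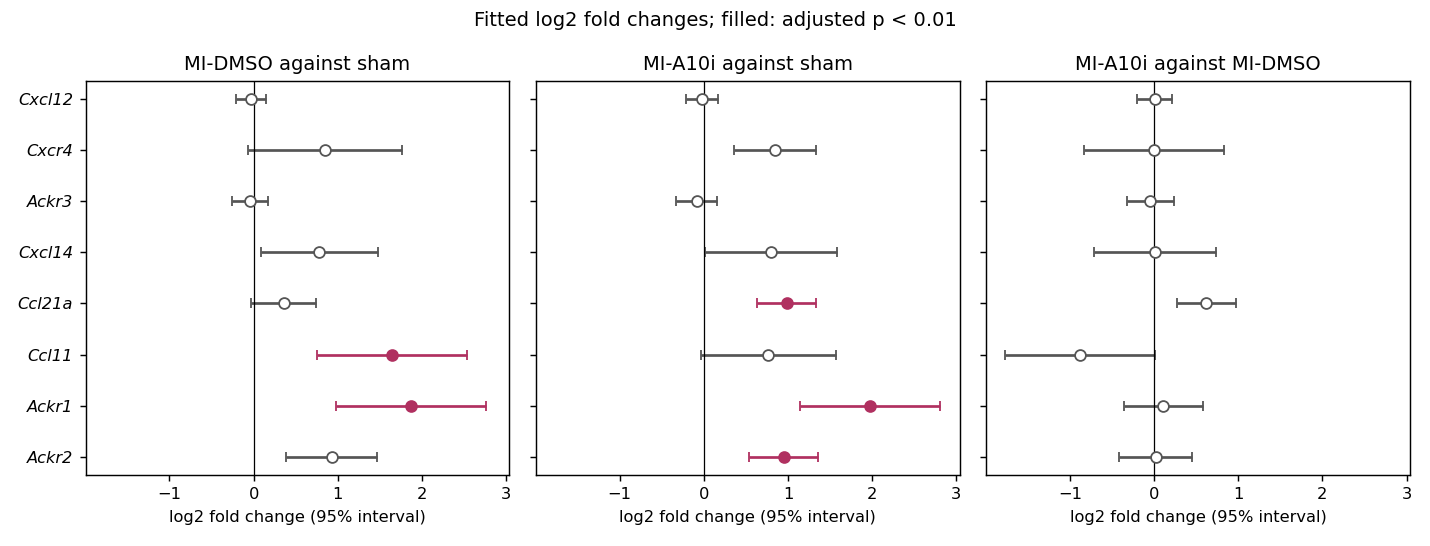
Fitted log2 fold change of each gene with its 95% interval in the 3 comparisons, where filled points passed an adjusted p of 0.01. Ccl11 and Ackr1 are filled in the first panel, Ccl21a, Ackr1 and Ackr2 in the second, and no point is filled in the third.

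Cxcl12 (ENSMUSG00000061353, chr6:117168535-117181367 on GRCm38, plus strand) did not move with infarction or with treatment beyond the spread between libraries. Sham held 5307, 5191 and 5456 normalized counts in S1, S2 and S3. MI-DMSO held 5006, 5579, 5278 and 5101 normalized counts in A105, A127, A128 and A129. MI-A10i held 5531, 4960, 5768 and 4696 normalized counts in A116, A117, A119 and A120. All 3 groups overlapped, and the spread was widest in MI-A10i. The log2 fold change was -0.03 in MI-DMSO against sham (95% interval -0.21 to 0.15, adjusted p = 0.787) and -0.02 in MI-A10i against sham (-0.21 to 0.17, adjusted p = 0.884). In MI-A10i against MI-DMSO it was 0.01 (-0.20 to 0.21, adjusted p = 0.983). Relative to Pdgfra, the receptor that marks fibroblasts, Cxcl12 had a median ratio per length of 4.82 in sham, 3.02 in MI-DMSO and 3.39 in MI-A10i, with overlapping ranges. Pdgfra itself was higher in both infarcted groups than in sham, past the threshold in MI-A10i (adjusted p = 0.0094) and not in MI-DMSO (adjusted p = 0.0165). Of the markers of mural cells, the pericytes and smooth muscle cells around vessels, 5 of 7 fell in MI-DMSO and 4 of 7 in MI-A10i against sham. Of all genes, 9.6% and 9.11% fell in these comparisons. The mural markers summed to 1473 to 1570 CPM in sham, 711.7 to 952.9 CPM in MI-DMSO and 868.7 to 1059 CPM in MI-A10i. The part of fibroblast or mural content in the Cxcl12 values was not tested.

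Cxcr4 (ENSMUSG00000045382, chr1:128588199-128592293, minus strand), the receptor through which CXCL12 attracts and retains leukocytes, was higher in most infarcted hearts but unevenly so. Sham held 114.6, 150.0 and 138.8 normalized counts. MI-DMSO held 166.7, 205.4, 137.3 and 464.3 normalized counts in A105, A127, A128 and A129, so that A128 lay among the sham libraries and A129 far above all others. MI-A10i held 344.6, 196.5, 193.6 and 230.1 normalized counts in A116, A117, A119 and A120, all above sham. The fitted log2 fold change was 0.85 in MI-DMSO (95% interval -0.07 to 1.76, adjusted p = 0.126) and 0.84 in MI-A10i (0.36 to 1.33, adjusted p = 0.0126), neither of which passed the threshold. The MI-A10i value did pass with DESeq2 (adjusted p = 0.00124) and with no filter on low counts (adjusted p = 0.00357). It also passed without A116 (0.62, adjusted p = 0.00343), without A117 (0.93, adjusted p = 0.00983) and without A119 (0.94, adjusted p = 0.00859). For the inhibitor against solvent the log2 fold change of Cxcr4 was 0.00 (-0.84 to 0.83, adjusted p = 0.997), and without A129 it was 0.52 (adjusted p = 0.375). That interval leaves room for a change in either direction.

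The pan-leukocyte markers moved with Cxcr4. All 5 of 5 (Ptprc, Laptm5, Coro1a, Cd53 and Arhgdib) rose in both comparisons with sham, where 12.9% and 13.7% of all genes rose. None was at 0 in any group, and their sum was highest in A129 (270.0 CPM) and A116 (272.3 CPM), the same libraries that held most Cxcr4. The other 6 infarcted libraries lay between 126.1 and 195.2 CPM, with A128 the lowest. Per length, the ratio of Cxcr4 to Ptprc, which encodes the leukocyte antigen CD45, had a median of 5.15 in sham (3.49 to 5.34), 2.97 in MI-DMSO (2.87 to 4.67) and 3.28 in MI-A10i (3.05 to 4.04). It was thus no higher after infarction, and the part of leukocyte content in the Cxcr4 values was not tested. With A129 and A116 both left out, the log2 fold change of Cxcr4 against sham was 0.32 in MI-DMSO (adjusted p = 0.193) and 0.62 in MI-A10i (adjusted p = 0.00343).

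**Figure D3:**
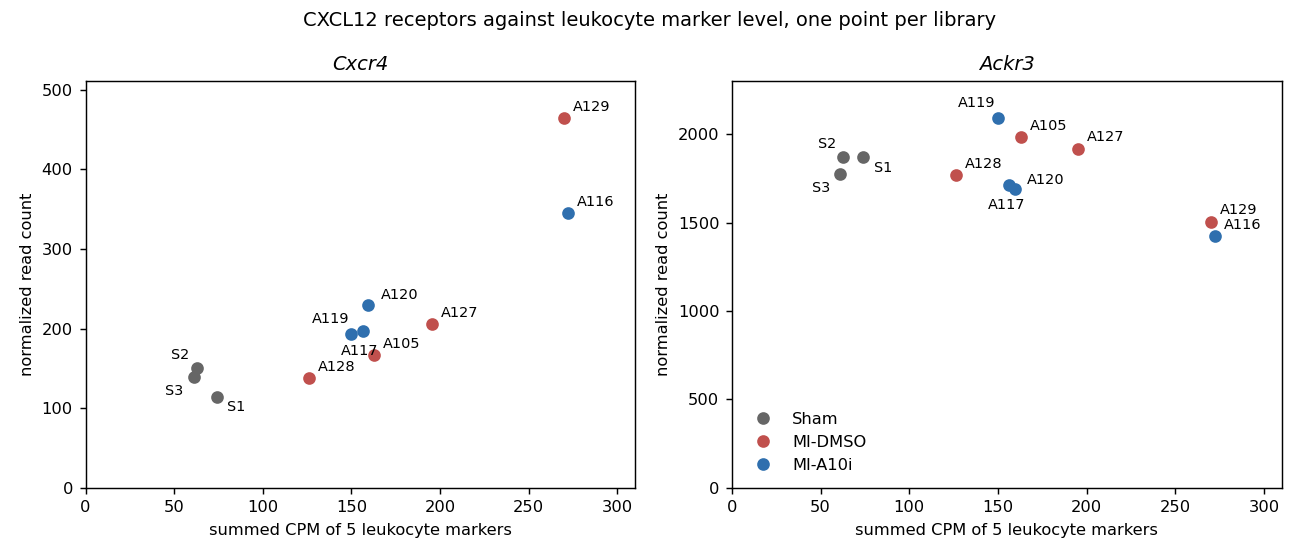
Normalized read counts of Cxcr4 (left) and Ackr3 (right) against the summed CPM of 5 leukocyte markers, with 1 labelled point per library and groups in colour. A129 and A116 stand at the right of both panels, highest for Cxcr4 (464.3 and 344.6) and lowest for Ackr3 (1505 and 1424).

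Ackr3 (ENSMUSG00000044337, chr1:90203980-90216751, plus strand), the endothelial and stromal scavenger that clears CXCL12, showed no group difference beyond its spread. Sham held 1869, 1869 and 1775 normalized counts. MI-DMSO held 1985, 1918, 1769 and 1505 normalized counts in A105, A127, A128 and A129. MI-A10i held 1424, 1710, 2091 and 1690 normalized counts in A116, A117, A119 and A120. The groups overlapped, and the lowest libraries were A116 and A129, the reverse of Cxcr4. A116 and A129 also held the lowest cardiomyocyte marker sums of their groups (51580 and 40290 CPM). The log2 fold change was -0.04 in MI-DMSO against sham (95% interval -0.26 to 0.17, adjusted p = 0.73), -0.09 in MI-A10i against sham (-0.33 to 0.15, adjusted p = 0.557) and -0.04 between the infarcted groups (-0.32 to 0.23, adjusted p = 0.912). Of the 9 endothelial markers none rose. In MI-DMSO against sham 2 fell (Kdr by 0.35 and Tie1 by 0.54 on the log2 scale), where 9.6% of all genes fell. In MI-A10i against sham 1 fell (Tie1, by 0.32), where 9.11% of all genes fell. The endothelial markers summed to between 1021 and 1043 CPM in sham, 827.3 and 967.2 CPM in MI-DMSO and 968.6 and 1085 CPM in MI-A10i. The part of leukocyte, endothelial or cardiomyocyte content in the Ackr3 values was not tested.

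The balance of ligand and receptors can be read per length within each library. Cxcl12 exceeded Cxcr4 by a median ratio of 8.69 in sham (7.65 to 10.2), 6.32 in MI-DMSO (2.43 to 8.50) and 5.05 in MI-A10i (3.55 to 6.59), so that every MI-A10i library lay below every sham library while MI-DMSO overlapped both. The ratio of Ackr3 to Cxcr4 was 6.90 in sham (6.73 to 8.81), 5.74 in MI-DMSO (1.75 to 6.96) and 4.33 in MI-A10i (2.23 to 5.83). The levels of Cxcl12 and Ackr3 themselves overlapped across the 3 groups. These ratios are descriptions and were not tested.

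Cxcl14 (ENSMUSG00000021508, chr13:56288643-56296551, minus strand) encodes a constitutively made CXC chemokine of epithelia and stroma. Sham held 210.3, 309.4 and 164.5 normalized counts. MI-DMSO held 296.6, 345.5, 631.4 and 307.6 normalized counts in A105, A127, A128 and A129. MI-A10i held 322.4, 666.6, 292.0 and 303.4 normalized counts in A116, A117, A119 and A120. In each infarcted group 1 library, A128 and A117, stood far above the others, of which at least 1 lay below the highest sham library. The fitted log2 fold change against sham was 0.78 in MI-DMSO (95% interval 0.08 to 1.48, adjusted p = 0.0718) and 0.80 in MI-A10i (0.01 to 1.58, adjusted p = 0.0986), and neither passed the threshold. Between the infarcted groups it was 0.01 (-0.72 to 0.74, adjusted p = 0.994). Without A128 and A117 the values against sham were 0.47 in MI-DMSO (adjusted p = 0.108) and 0.42 in MI-A10i (adjusted p = 0.137). The fibroblast markers, none of them at 0, rose for 2 of 9 in MI-DMSO and 6 of 9 in MI-A10i, where 12.9% and 13.7% of all genes rose. In MI-DMSO these were the collagens Col1a1 and Col1a2 (log2 fold changes 2.85 and 2.12), while Gsn was lower (-0.70, adjusted p = 0.0208). The sum of the 9 markers, to which these 3 genes gave the most counts after infarction, was 3002 CPM in A128, within the MI-DMSO range of 2230 to 4068 CPM. It was 4332 CPM in A117, near the low end of the MI-A10i range of 4309 to 5931 CPM. The part of fibroblast content in the Cxcl14 values was not tested.

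The libraries A128 and A117 were also the highest of their groups for Ccl21a and Ccl11. A117 held the largest sums of the lymphatic (229.1 CPM), epicardial (112.5 CPM), adipocyte (14.3 CPM) and red blood cell (5015 CPM) markers of all 11 libraries. A128 held the largest lymphatic sum of its group (188.7 CPM) but the smallest sums of the epicardial (41.6 CPM), adipocyte (0.939 CPM) and red blood cell (234 CPM) markers among the MI-DMSO libraries. The part of the tissue sampled in these values was not tested.

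Ccl21a (ENSMUSG00000094686, chr4:42772860-42773993, minus strand) encodes the CCR7 ligand that lymphatic endothelium and lymphoid stroma present to dendritic cells and T cells, in its serine form. Mouse strains carry near-identical copies of this gene, and 50.3% of the 100-base windows of its transcript (388 of 771) also occur in Ccl21b, Gm13304, Gm21541 or Gm10591, so that reads from them could be told apart only where the sequences differ. Within the 402 coding bases the 4 copies differed from Ccl21a at 2 positions counted from the first base of the start codon, T84A and C194T (99.5% identity). The sequences around both positions, read from GRCm38, are shown because they are where the coding sequences of these genes can be told apart, with the base that differs in capitals. Differences outside the coding sequence also separate the genes.
Ccl21a, coding bases 70 to 98, chr4:42773733-42773761, minus strand: agtgatggagggggTcaggactgctgcct
Ccl21b, coding bases 70 to 98, chr4:42255924-42255952, plus strand: agtgatggagggggAcaggactgctgcct
Ccl21a, coding bases 189 to 208, chr4:42773529-42773548, minus strand: gttctCaccccggaagcact
Ccl21b, coding bases 189 to 208, chr4:42256137-42256156, plus strand: gttctTaccccggaagcact
The other 3 copies carried the same letters as Ccl21b in both stretches. The second position lies in codon 65, which reads serine in Ccl21a and leucine in the copies.

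Ccl21a rose with infarction under the inhibitor. Sham held 143.5, 117.7 and 106.9 normalized counts. MI-DMSO held 123.4, 156.4, 181.9 and 168.8 normalized counts in A105, A127, A128 and A129, of which A105 lay within the sham range. MI-A10i held 222.3, 302.2, 228.5 and 213.0 normalized counts in A116, A117, A119 and A120, every one above both other groups. The log2 fold change was 0.98 ± 0.16 (SE) in MI-A10i against sham (1.98-fold, adjusted p = 0.00126), and it stayed past the threshold with each library left out in turn (adjusted p between 0.00028 and 0.00925). In MI-DMSO against sham it was 0.36 ± 0.17 (adjusted p = 0.13). In MI-A10i against MI-DMSO it was 0.62 ± 0.16 (1.54-fold, 95% interval 0.27 to 0.98). This difference had an unadjusted p of 0.00278 and an adjusted p of 0.143, and so did not pass the threshold over all genes. The exact permutation test, two-sided, gave p = 0.0286 on log2(CPM + 1), which is the smallest value that 4 against 4 libraries allow, and Ccl21a was 1 of 8 genes tested in this way.

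The copies gave few counts of their own, between 12 and 42 for Gm13304, between 6 and 33 for Ccl21b, and at most 1 for Gm21541 and 0 for Gm10591 in any library. Summed with its copies, Ccl21a reached 149.6 ± 21.4 normalized counts in sham (SD, n = 3), 196.5 ± 36.2 in MI-DMSO and 297.2 ± 53.0 in MI-A10i (n = 4 each). Ccl21a made up between 75.1% and 85.7% of the sum in every library. The summed log2 fold change was 1.00 in MI-A10i against sham (adjusted p = 0.00107) and 0.60 between the infarcted groups (adjusted p = 0.161), close to the values for Ccl21a alone.

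**Figure D4:**
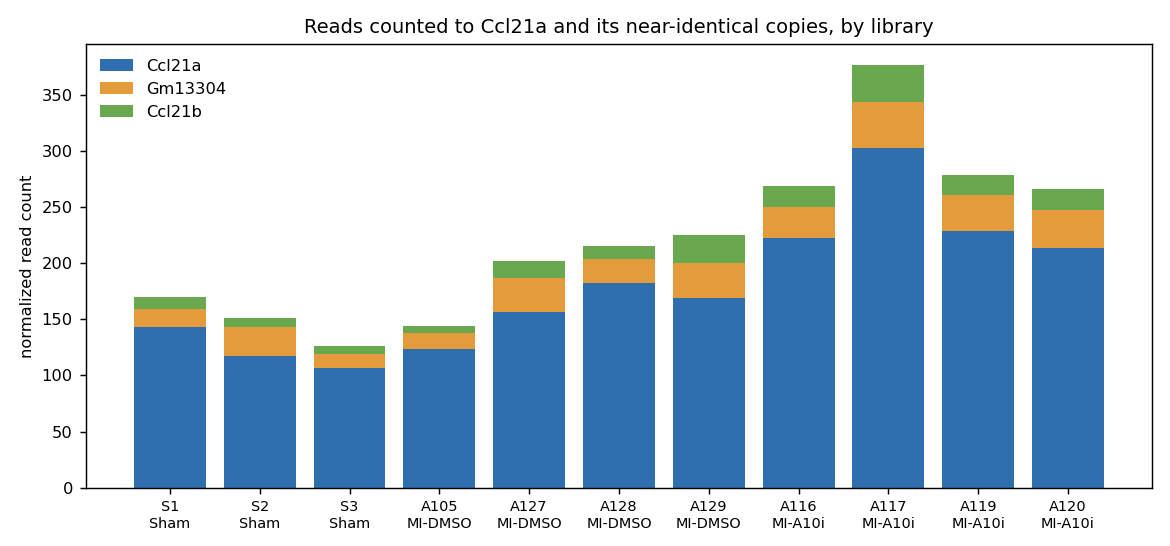
Normalized read counts of Ccl21a (blue), Gm13304 (orange) and Ccl21b (green) stacked for each of the 11 libraries. The 4 MI-A10i bars, at 265.6 to 376.3 with all copies included, stand above the 4 MI-DMSO bars at 144.0 to 224.7 and the 3 sham bars at 127.5 to 170.3.

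Of 6 lymphatic endothelial markers, Pdpn rose in MI-DMSO and Pdpn and Flt4 in MI-A10i against sham, where 12.9% and 13.7% of all genes rose, and none passed the test between the infarcted groups. Their sum ranged from 135.5 to 158.2 CPM in sham, 163.5 to 188.7 CPM in MI-DMSO and 161.5 to 229.1 CPM in MI-A10i, so that every infarcted library lay above sham. None of the markers was at 0. The 6 markers did not move together: against sham, 3 were higher and 3 lower in MI-DMSO, and 5 higher and 1 lower in MI-A10i. Pdpn alone went from 122.8 normalized counts in sham to 881.1 in MI-DMSO and 566.3 in MI-A10i. The higher sum in MI-DMSO was mostly that of Pdpn. Flt4 (627.5 in sham, 832.4 in MI-DMSO) and Lyve1 (931.6 and 1016) differed by less, and Prox1, Mmrn1 and Reln were lower. Relative to Prox1, the transcription factor that defines lymphatic endothelium, Ccl21a had a median ratio per length of 0.726 in sham (0.572 to 0.827), 1.14 in MI-DMSO (0.849 to 1.60) and 1.62 in MI-A10i (1.35 to 1.81), with no overlap between sham and either infarcted group. Prox1 is also made by cardiomyocytes, so this ratio is not one of lymphatic cells alone. Prox1 itself was at 1680 normalized counts in sham, 1331 in MI-DMSO and 1471 in MI-A10i. Its log2 fold change in MI-DMSO against sham was -0.35 (adjusted p = 0.0803). The ratio thus also holds the lower Prox1 level, and Ccl21a alone overlapped sham in MI-DMSO. Of the markers of lymph node or thymus, Rag1 and Rag2 were at 0 in all 11 libraries, and the summed level was between 0.282 and 0.609 CPM in sham, 1.38 and 4.61 CPM in MI-DMSO and 0.827 and 5.53 CPM in MI-A10i, with no overlap between sham and the infarcted libraries. Il7r, the interleukin-7 receptor, was the 1 gene of that list tested, and it rose in MI-DMSO against sham from 7.66 to 62.6 normalized counts (adjusted p = 0.00286) and stood at 59.5 in MI-A10i (adjusted p = 0.016). No other gene of the list had a group mean above 5.36 normalized counts (Ccl19 in MI-DMSO), so the summed level was mostly that of Il7r. Other marker lists also stood higher in MI-A10i than in MI-DMSO, though none of their genes passed the adjusted test. All 6 epicardial markers were higher, 5 of them at an unadjusted p below 0.05, where 7.1% of all genes were higher. Their median log2 fold change was 0.75, with sums of 41.6 to 65.5 CPM in MI-DMSO and 54.0 to 112.5 CPM in MI-A10i. All 5 atrial markers were higher (median 0.78, sums of 26.1 to 109.1 and 62.9 to 128.5 CPM), as were the 3 adipocyte markers tested (median 1.36, sums of 0.939 to 4.23 and 2.61 to 14.3 CPM). The same direction was seen for all 7 mural, 8 macrophage and 5 red blood cell markers. It was also seen for 8 of 9 fibroblast, 8 of 9 endothelial and 7 of 8 cardiomyocyte markers. All 5 neutrophil markers tested and 3 of 5 pan-leukocyte markers were lower. The part of tissue make-up in the Ccl21a values was not tested. Without A128 and A117 the log2 fold change of Ccl21a was 0.86 in MI-A10i against sham (adjusted p = 0.00173).

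Ccl11 (ENSMUSG00000020676, chr11:82057823-82062955, plus strand), eotaxin-1, attracts eosinophils through CCR3 and is made by fibroblasts. It rose in infarcted hearts given the solvent. Sham held 25.6, 16.1 and 22.6 normalized counts. MI-DMSO held 37.9, 70.5, 112.4 and 45.9 normalized counts in A105, A127, A128 and A129, all above sham and spread over a wide range. MI-A10i held 34.4, 60.2, 23.3 and 26.3 normalized counts in A116, A117, A119 and A120, with A119 among the sham libraries. The fitted log2 fold change in MI-DMSO against sham was 1.64 ± 0.40 (SE, 3.11-fold), with an adjusted p of 0.00995, just inside the threshold. The call was lost without S1 (1.77, adjusted p = 0.0299), S2 (1.46, adjusted p = 0.0485), S3 (1.68, adjusted p = 0.0385), A127 (1.62, adjusted p = 0.0239) or A128 (1.27, adjusted p = 0.012), and with limma-voom (1.55, adjusted p = 0.0221). In MI-A10i against sham the log2 fold change was 0.77 ± 0.36 (adjusted p = 0.119). For the inhibitor against solvent it was -0.88 ± 0.40 (95% interval -1.77 to 0.01, adjusted p = 0.367, exact permutation p = 0.114), a difference of means from 66.7 to 36.1 normalized counts that did not exceed the spread between libraries.

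None of the 5 eosinophil markers had enough counts to be tested. Their sum was at most 0.26 CPM in sham, 1.45 CPM in MI-DMSO and 0.751 CPM in MI-A10i, and Epx, the eosinophil peroxidase, was at 0 in all sham and MI-A10i libraries. Siglecf, an eosinophil surface lectin also made by other myeloid cells, gave 0 to 3 reads in sham, 8 to 35 in MI-DMSO and 0 to 13 in MI-A10i, so that MI-DMSO did not overlap sham. The receptor Ccr3 gave between 0 and 4 counts in any library. Of the fibroblast markers, 2 of 9 rose in MI-DMSO and 6 of 9 in MI-A10i against sham, where 12.9% and 13.7% of all genes rose. The 2 in MI-DMSO were the collagens Col1a1 and Col1a2. Pdgfra stood at 1353 normalized counts in sham, 2027 in MI-DMSO and 1816 in MI-A10i. The part of eosinophil or fibroblast content in the Ccl11 values was not tested.

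Ackr1 (ENSMUSG00000037872, chr1:173331886-173333750, minus strand), the Duffy antigen receptor, carries chemokines across the endothelium of venules and binds them on red blood cells. It rose in both infarcted groups from a very low level. Against sham it passed the filter on low counts only through the infarcted libraries, where it was higher. Sham held 9, 5 and 3 reads (10.02, 4.75 and 3.09 normalized counts). MI-DMSO held 17.3, 21.5, 23.2 and 25.0 normalized counts in A105, A127, A128 and A129, and MI-A10i held 23.2, 21.7, 23.3 and 25.2 normalized counts in A116, A117, A119 and A120. Every infarcted library lay above every sham library, and the infarcted groups overlapped. The log2 fold change was 1.87 ± 0.40 (SE, 3.65-fold, adjusted p = 0.00528) in MI-DMSO and 1.98 ± 0.38 (3.94-fold, adjusted p = 0.00268) in MI-A10i. Since the sham level rests on few reads, the calls depended on single libraries: MI-DMSO lost its call without S2 (1.73, adjusted p = 0.0304), S3 (1.56, adjusted p = 0.0283) or A127 (1.88, adjusted p = 0.0115), and MI-A10i lost it without S2 (1.84, adjusted p = 0.0173) or S3 (1.67, adjusted p = 0.0148). Between the infarcted groups it was 0.11 (95% interval -0.36 to 0.58, adjusted p = 0.873).

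Ackr1 shares 361 of its 1405 exon bases (25.7%) with Cadm3 on the same strand, which gave between 72 and 140 counts per library and did not pass the test in any comparison, with a log2 fold change of 0.19 in MI-DMSO and 0.52 in MI-A10i against sham. Of the venular endothelial markers, 4 of 7 rose in both comparisons with sham, where 12.9% and 13.7% of all genes rose. Among them were the adhesion molecules Selp, Sele and Vcam1. In MI-DMSO Plvap also rose, from 229.0 to 940.2 normalized counts. Vwf, Nr2f2 and Ephb4 did not pass the threshold there (log2 fold changes 0.15, -0.08 and -0.12). The sum of the 7 markers went from between 254.1 and 292.5 CPM in sham to between 309.1 and 377.1 CPM in MI-DMSO and between 314.2 and 359.3 CPM in MI-A10i, with none at 0. Relative to the endothelial marker Pecam1, Ackr1 had a median ratio per length of 0.00405 in sham, 0.0182 in MI-DMSO and 0.0175 in MI-A10i. The red blood cell markers ranged from 594.1 to 1286 CPM in sham and from 234 to 5015 CPM after infarction, and 0 of 5 passed the test. The part of venular or red blood cell content in the Ackr1 values was not tested.

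Ackr2 (ENSMUSG00000044534, chr9:121898355-121911074, plus strand), a scavenger of inflammatory CC chemokines that is known from lymphatic endothelium, was higher in both infarcted groups. Sham held 55.6, 39.9 and 46.3 normalized counts. MI-DMSO held 100.7, 92.0, 60.9 and 107.8 normalized counts in A105, A127, A128 and A129, and MI-A10i held 84.9, 103.7, 81.5 and 92.7 normalized counts in A116, A117, A119 and A120. No infarcted library overlapped sham, and A128 was the lowest of them. The fitted log2 fold change was 0.95 ± 0.18 (SE, 1.93-fold, adjusted p = 0.00287) in MI-A10i, where the call was lost without S2 (0.84, adjusted p = 0.0181) or S3 (0.93, adjusted p = 0.0155). In MI-DMSO it was 0.93 ± 0.24 (1.90-fold) and missed the threshold at an adjusted p of 0.0135. It passed without A128 (1.08, adjusted p = 0.00318), and with DESeq2 (adjusted p = 0.0036) and in a fit of all 11 libraries (adjusted p = 0.0047). In MI-A10i against MI-DMSO the log2 fold change was 0.02 (95% interval -0.42 to 0.45, adjusted p = 0.982).

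**Figure D5:**
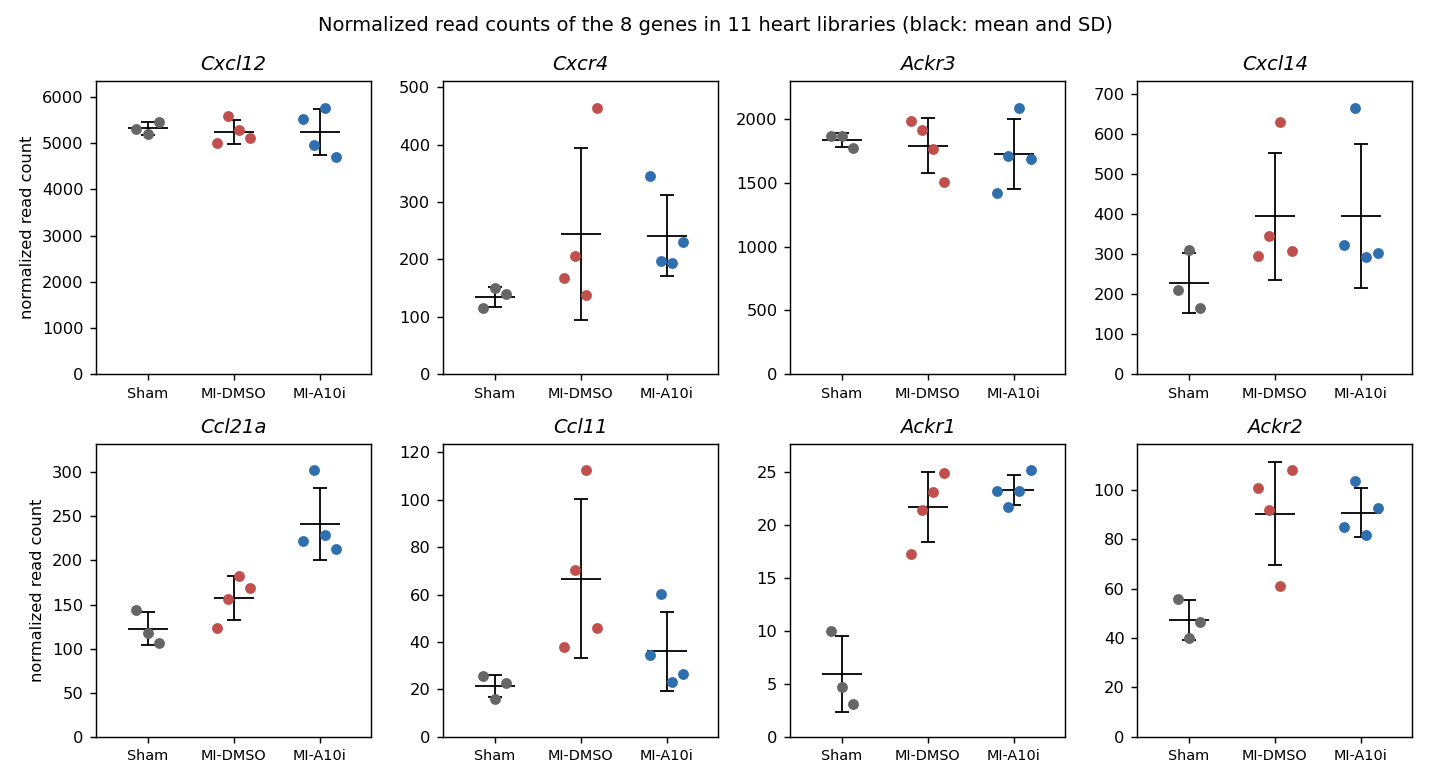
Normalized read counts of the 8 genes, with 1 point per library (3 sham, 4 MI-DMSO, 4 MI-A10i) and the group mean and SD in black, on axes that start at 0. Cxcl12 and Ackr3 overlap in all groups, Ackr1 and Ackr2 lie above sham in both infarcted groups, and Ccl21a lies at 213.0 and above in MI-A10i alone.

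The genes listed downstream of CXCR4 were 22 G protein subunits, arrestins, receptor kinases, RGS proteins and effectors of leukocyte migration. All were tested, and 11 rose and 0 fell in MI-DMSO against sham (median log2 fold change 0.76), where 12.9% of all genes rose and 9.6% fell. In MI-A10i against sham 12 rose and 0 fell (median 0.63), where 13.7% of all genes rose and 9.11% fell, and between the infarcted groups 0 of 22 passed the test (median -0.05). The genes with the smallest p in MI-DMSO were Rac2, a small GTPase of leukocytes (log2 fold change 2.23 ± 0.26, SE, adjusted p = 0.000361), Grk5, a kinase that turns off receptors (0.82 ± 0.10, adjusted p = 0.000376), and Ptk2b, the kinase PYK2 (1.16 ± 0.15, adjusted p = 0.000464). Several genes of this list, Rac2 among them, are known from leukocytes, whose markers were higher in the same libraries. The part of leukocyte content in these values was not tested.

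A list of 12 genes held proteases and proteoglycans that process or display CXCL12, the partners Mif, Cd74 and Hmgb1, and the hypoxia factors Hif1a and Epas1. Of these, 6 rose and 2 fell in MI-DMSO against sham (median log2 fold change 0.26), where 12.9% of all genes rose and 9.6% fell. The smallest p belonged to Hif1a, the oxygen-regulated transcription factor (log2 fold change 1.03 ± 0.09, adjusted p = 8.45e-05), Sdc4, a heparan sulfate proteoglycan that can hold chemokines at the cell surface (1.98 ± 0.17, adjusted p = 0.000108), and Mmp14, a membrane metalloprotease that can cleave CXCL12 (2.76 ± 0.33, adjusted p = 0.000521). Mif, a cytokine that also binds CXCR4, rose from 492.8 to 731.8 normalized counts (0.56 ± 0.13, adjusted p = 0.00904) and stood at 682.7 in MI-A10i (0.47 ± 0.09, adjusted p = 0.00311). The proteoglycan Gpc1 and the hypoxia factor Epas1 were the 2 that fell, by 0.61 and 0.63 on the log2 scale. In MI-A10i against sham 6 rose and 1, Epas1, fell (median 0.37), where 13.7% of all genes rose and 9.11% fell.

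Cd74, the surface receptor of MIF and chaperone of MHC class II, was at 2473 normalized counts in sham, 1249 in MI-DMSO and 2087 in MI-A10i. Its log2 fold change was -0.99 in MI-DMSO against sham (adjusted p = 0.0651) and 0.75 between the infarcted groups (adjusted p = 0.379). Dpp4, the peptidase that inactivates CXCL12, held 237.0, 171.8 and 178.9 normalized counts in sham, 136.4, 176.2, 136.4 and 134.8 in MI-DMSO, and 197.1, 243.9, 204.2 and 204.9 in MI-A10i. The infarcted groups of Dpp4 did not overlap, with a log2 fold change of 0.55 ± 0.13 that did not pass over all genes (unadjusted p = 0.00197, adjusted p = 0.127). Of the 12 genes 3 had no such overlap, as had 8.18% of all genes. Mmp2 was also higher in MI-A10i (1939 to 2358 normalized counts) than in MI-DMSO (1390 to 1820), and Sdc4 was lower (696.2 to 1202 against 1355 to 2162). At an unadjusted p below 0.05, 3 of the 12 were higher and 2 lower, against 7.1% and 6.73% of all genes. None of the 12 genes passed the adjusted test in this comparison.

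Of the other homeostatic ligands, Cxcl13, which draws B cells into follicles, was nearly silent in sham (1, 1 and 0 reads) and reached 30, 6, 64 and 16 reads in MI-DMSO and 23, 10, 2 and 14 reads in MI-A10i. Against sham it passed the filter on low counts only through the MI-DMSO libraries, where it was high. Its call in MI-DMSO against sham (adjusted p = 0.00752) thus rests on a gene let in by that group. In MI-A10i against sham it was not tested for want of counts. Between the infarcted groups it did not differ beyond its spread (log2 fold change -1.07 ± 0.71, adjusted p = 0.552). Ccl19, the other CCR7 ligand, gave at most 9 reads in any library and was not tested. Ccr7 itself, the receptor for CCL21, held 6.13 normalized counts in sham, 13.8 in MI-DMSO and 13.3 in MI-A10i, with adjusted p-values of 0.137 and 0.0897 against sham. Ackr4, the scavenger of CCL19 and CCL21, was at 197.4 normalized counts in sham, 115.3 in MI-DMSO and 232.8 in MI-A10i. Its log2 fold change between the infarcted groups was 1.02 ± 0.34 (unadjusted p = 0.0143, adjusted p = 0.236), with overlapping libraries. Ccrl2, another receptor read here, was lower in MI-A10i (264.8 to 371.3 normalized counts) than in MI-DMSO (421.1 to 583.5). These libraries did not overlap, as for 8.18% of all genes, and Ccrl2 did not pass the adjusted test.

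The chemokines and receptors related to Ccl11 were read from a list of 6. Of the eotaxins, related monocyte chemokines and their receptors, 4 of 6 were tested and 3, Ccl7, Ccl8 and the monocyte receptor Ccr2, rose in both comparisons with sham, where 12.9% and 13.7% of all genes rose. Ccl7 held between 10.3 and 22.3 normalized counts in sham and rose by 4.98 ± 0.33 on the log2 scale in MI-DMSO (adjusted p = 4.17e-05) and by 3.94 ± 0.43 in MI-A10i (adjusted p = 0.000387). Ccl8 rose by 2.63 ± 0.48 in MI-DMSO (adjusted p = 0.00265) and by 4.06 ± 0.30 in MI-A10i (adjusted p = 6.77e-05). Ccr2 rose by 2.93 ± 0.43 in MI-DMSO (adjusted p = 0.00115) and by 3.29 ± 0.45 in MI-A10i (adjusted p = 0.00111). Ccl8 was higher in MI-A10i than in MI-DMSO without overlap (at least 154.1 against at most 109.1 normalized counts) and did not pass the adjusted test (1.42 ± 0.30, adjusted p = 0.096). Ccl24, eotaxin-2, held 125.6, 18.1, 54.9 and 92.9 normalized counts in MI-DMSO and 9.10, 32.6, 8.46 and 11.5 in MI-A10i, a log2 fold change of -2.20 ± 0.62 with overlapping libraries (unadjusted p = 0.00575, adjusted p = 0.174). Ccl7 was also lower in MI-A10i (158.7 to 401.2 normalized counts) than in MI-DMSO (326.6 to 669.1), with overlap. Of the 4 genes tested, 1 was higher and 2 lower at an unadjusted p below 0.05, and 0 passed the adjusted test.

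Over the 8 infarcted libraries, the genes whose log2(CPM + 1) followed each of the 8 most closely were sought among 14795 genes by Pearson's r, as a description without a test. Cxcr4 was matched best by Gm5045 (r = 0.987), Nptxr (0.981) and Irf8 (0.976), a transcription factor of myeloid cells. Cxcl14 was matched best by Hsd11b1 (0.969), Apod (0.963) and Hist1h1c (0.95). The best matches of the other 6 genes were Zfp583 for Cxcl12 (0.938), G6pc3 for Ackr3 (0.969), Chd3 for Ccl21a (0.977), Marc2 for Ccl11 (0.983), Inpp5f for Ackr1 (0.95) and Atf5 for Ackr2 (0.953). The libraries share their depth and tissue make-up, and among so many genes high values arise with so few libraries.

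Promoter sequences of 7 of the 8 genes were taken from RefSeq (GRCm38.p6), and that of Ccl11 was not analysed here. In the 250 bases before the RefSeq starts, neither the hypoxia response core ACGTG nor the palindromic STAT6 motif was found on either strand in any of the 7. The start used for Ackr1 lies inside the gene span given above. Its window (chr1:173333504-173333753) thus falls almost wholly within that span. Of 32851 promoters of this length, 16.6% held the first and 5.85% the second.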

How the data were processed

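The authors prepared strand-specific libraries from poly(A)-selected heart RNA and sequenced pairs of 100 bases. The deposited table holds raw read counts per gene, made by the authors with bcl2fastq 2.20.0, GSNAP and featureCounts 2.0.1 on mm10 with Ensembl annotation. Only uniquely aligned reads were counted, and the strand setting of the counting is not given in the sources used here. The deposited length column gives the exon bases of each gene and served for levels per kilobase. The 92 ERCC rows, at most 0.000194% of a library, were left out of library sizes and tests.

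Genes were matched to symbols of GENCODE M21 (55154 of 55421). Each comparison was fitted with edgeR 4.0.16 (R 4.3.3) on the libraries of its 2 groups, with filterByExpr, TMM scaling, robust quasi-likelihood F-tests and Benjamini-Hochberg adjustment over all genes tested. An adjusted p below 0.01 was called. The study used the same threshold with another test, DESeq2 with IHW. Intervals are 95% intervals of the fit. For the infarcted groups, an exact two-sided permutation test (smallest p 0.0286) was run on log2(CPM + 1). The fit was tested on simulated counts. DESeq2 1.42.0, limma-voom (limma 3.58.1), other scalings and filters, a fit of all 11 libraries, a threshold of 0.05, a pseudocount of 0.1 CPM and each library left out in turn were alternatives, and 3 more were added after seeing the data (the pairs A129 with A116 and A128 with A117 left out, and Ccl21a summed with its copies). The counts of no 2 libraries of a group agreed within sampling noise.

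Named genes were the 8 genes, 9 related receptors, ligands and partners, the 3 genes of smallest p among those called in each pathway list in MI-DMSO against sham, and the closest patterns. Others named were chosen after their values were seen. The 8 genes and all lists were chosen with earlier results of these data known. Ccl21c and Fdcsp were not found by symbol. The endothelial, arterial, venular, lymphatic, mural, fibroblast, epicardial, cardiomyocyte, atrial, leukocyte and other marker lists describe tissue make-up only.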

Additional observations from a re-analysis of the deposited data

Results flagged for a closer look

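Cxcl14 stood apart in 1 library of each infarcted group. MI-DMSO A128 held 631.4 normalized counts, while the other 3 libraries of its group lay between 296.6 and 345.5, and its gap to the nearest was 0.854 of the group's range. MI-A10i A117 held 666.6 normalized counts, while the other 3 lay between 292.0 and 322.4, a gap of 0.919 of the range. Both exceed Dixon's 95% critical value for 4 libraries. Among 16 such checks (8 genes in 2 groups of 4), some are flagged by chance, at about 5% of groups. The sham group has 3 libraries and was not checked.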

How the results depend on the processing

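The members called in MI-DMSO against sham went from 2 to 1 with limma-voom and to 1 with at least 10 counts in every library, a filter that removes Ackr1, and to 3, with Ackr2, under DESeq2, library size alone, no filter and a fit of all 11 libraries; it ranged from 0 to 2 with 1 library left out. In MI-A10i against sham 3 were called, 4 with DESeq2 or no filter (Cxcr4 added), 2 with at least 10 counts, and 1 to 4 with 1 library left out. Between the infarcted groups none was called under any alternative. The genes called ranged from 1525 to 4051, from 1620 to 4365 and from 0 to 1 in the 3 comparisons with 1 library left out. At an adjusted p of 0.05 they numbered 6832, 6671 and 12. Between the infarcted groups they numbered 231 with DESeq2, 43 with no filter on low counts and 11 in a fit of all 11 libraries. With library size alone, whose all-gene medians are 0.21 and 0.18, the log2 fold changes of Cxcl12 (0.18 in MI-DMSO, 0.17 in MI-A10i) and Ackr3 (0.16 and 0.10) against sham turned positive. Between the infarcted groups it gave -0.0071 for Cxcl12, -0.0087 for Cxcl14 and -0.0028 for Ackr2. Signs of values near 0 also turned in that comparison with limma-voom (Cxcr4 0.14, Cxcl14 -0.014), without A129 and A116 (Cxcl12 -0.033, Cxcr4 0.29, Cxcl14 -0.0055) and without A128 and A117 (Cxcl14 -0.042, Ackr2 -0.21). Against sham they turned for Ackr3 in MI-DMSO without A129 and A116 (0.029) and for Cxcl12 in MI-A10i without A128 and A117 (0.0092). With 1 library left out, the values between the infarcted groups ranged from -0.040 to 0.055 for Cxcl12, -0.22 to 0.52 for Cxcr4, -0.15 to 0.040 for Ackr3, -0.36 to 0.33 for Cxcl14 and -0.13 to 0.12 for Ackr2. Against sham they ranged from -0.11 to 0.029 for Ackr3 in MI-DMSO and from -0.063 to 0.032 for Cxcl12 in MI-A10i. The cause of these turns was not tested. Each exact permutation result kept its direction and its side of 0.05 under both alternatives. No paired analysis was possible because the libraries of different groups share no replicate number. Ackr1, with 3 to 9 reads per sham library, is limited most by depth.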
